A study of Sus scrofa with 6 samples.

Results

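Genes that move sodium, potassium, chloride and acid across the cardiomyocyte membrane were examined in the ventricles of Tibetan minipigs under chronic pressure overload. The list named 7 genes: ATP1B1, ATP1B2 and ATP1B3 for the beta subunits of the sodium pump, FXYD1 for phospholemman, and SLC4A3, SLC4A4 and SLC12A2 for transporters of bicarbonate and chloride. They were picked by gene symbol, and 5 of the 7 had a row under their own symbol among the 13288 genes of the table. ATP1B3 and FXYD1 had none, so no value is given for phospholemman by name. Positions are those of the table, on the pig genome build susScr11. Total RNA was sequenced from the heart of 3 minipigs with sham surgery, replicates 1 to 3, and of 3 minipigs with descending aortic constriction (DAC), replicates 4 to 6. The animals were male, both groups underwent thoracotomy, and tissue was taken 12 weeks after surgery. The protocol names ventricular tissue without saying which ventricle each sequenced piece came from.

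The sodium pump uses ATP to carry sodium out of the cell and potassium in, and the steep sodium gradient it keeps drives most other ion exchange in the heart. Its alpha subunit does the transport, its beta subunit is needed to fold the alpha subunit and bring it to the membrane, and phospholemman restrains the pump until it is phosphorylated. Intracellular pH is set by acid extruders, which bring bicarbonate in or push protons out on the sodium gradient, and by acid loaders, which exchange bicarbonate for chloride. The question of the comparison was which of these genes differed in transcript level between hearts under chronic pressure overload and sham hearts.

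None of the 5 genes passed the test between the groups. Levels are given in FPKM, in which fragments are divided by transcript length and by the size of the library, and DAC was compared with sham on log2(FPKM + 1) with limma's moderated test. A differentially expressed gene (DEG) had an unadjusted P under 0.05, the threshold of the study, and 0 of the 5 members were DEGs, against 8.51% of the 11029 genes tested. In limma, the unadjusted P of the members was between 0.388 and 0.955, and the adjusted P between 0.808 and 0.990. No gene of the table reached an adjusted P under 0.05 with limma, the smallest being 0.106, while 939 were DEGs. The 2 groups overlapped in all 5 members. Among all genes tested, they did not overlap in 14.9%, 6.01% being higher and 8.91% lower in the DAC group. The mean FPKM was higher in the DAC group for 4 members and lower for SLC4A3. The median log2 fold change of the members was 0.10, beside -0.016 for all genes tested. For 3 minipigs against 3, the smallest two-sided P that an exact permutation test can give is 0.10.

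**Figure D1:**
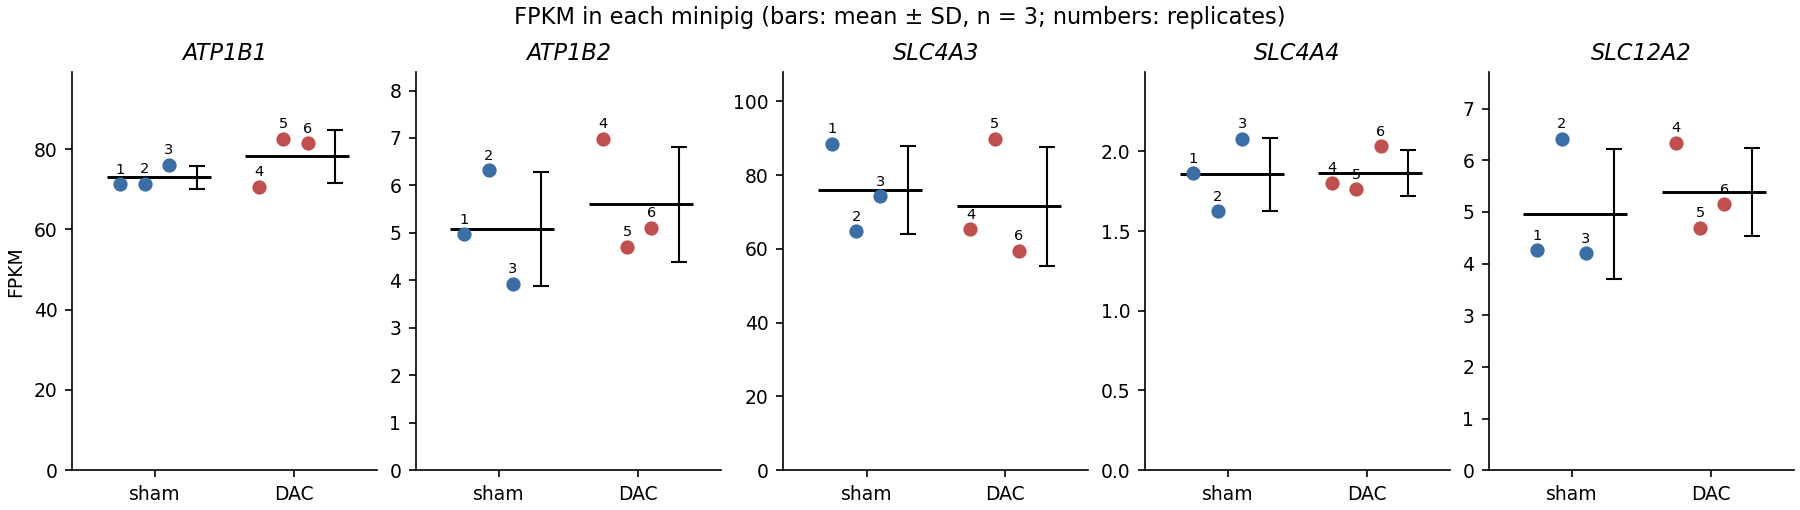
FPKM (vertical axis, from 0) of the 5 members in each minipig, with sham in blue and DAC in red, replicate numbers above the points, horizontal lines at the means and bars for the SD (n = 3). Sham and DAC points overlap in every panel, and replicates 2 and 4 are the highest for ATP1B2 and SLC12A2.

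The levels of the members, which FPKM puts on a common scale per length, fell into 3 tiers. ATP1B1 and SLC4A3 were the most abundant, at mean levels of 75.6 and 73.7 FPKM over the 6 samples, at percentiles 96.7 and 96.6 of the listed genes. Their ranges overlapped, from 70.6 to 82.6 FPKM for ATP1B1 and from 59.5 to 89.9 FPKM for SLC4A3. ATP1B2 and SLC12A2 came next at 5.34 and 5.18 FPKM, and they also overlapped each other. SLC4A4 was lowest at 1.86 FPKM, with all of its samples below all of those of the other members.

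ATP1B1 (ENSSSCG00000006296, chromosome 4 from 81911558 to 81997714, minus strand) encodes the main beta subunit of the cardiac sodium pump. It was at 71.3, 71.4 and 76.1 FPKM in the sham minipigs and at 70.6, 82.6 and 81.5 FPKM in the DAC minipigs. DAC replicates 5 and 6 lay above all sham samples, and DAC replicate 4 lay below them. The group means were 72.9 ± 2.76 FPKM in the sham group and 78.2 ± 6.64 FPKM in the DAC group (SD, n = 3 each). The log2 fold change of ATP1B1 was 0.10 with a standard error of 0.11 (limma, adjusted P = 0.808), and its 95% interval ran from -0.15 to 0.35. ATP1B1 had the narrowest interval of the 5 members, and a log2 difference of 0.25 would have been called a DEG at its standard error. The row shares 186 bases with NME7 on the opposite strand. It holds all 24473 bases of RefSeq ATP1B1, which ends at 81937015, and runs on to 81997714.

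ATP1B2 (ENSSSCG00000017951, chromosome 12 from 52925693 to 52932637, plus strand) encodes a second beta isoform, best known from glia, where it also acts in cell adhesion. Its FPKM was 4.97, 6.32 and 3.93 in the sham group and 6.99, 4.71 and 5.11 in the DAC group. The highest DAC sample, replicate 4, was above all sham samples, and the other DAC samples lay within the sham range. The means were 5.08 ± 1.20 FPKM for sham and 5.60 ± 1.22 FPKM for DAC (SD, n = 3 each). ATP1B2 had a log2 fold change of 0.12 with a standard error of 0.19 (limma, adjusted P = 0.871), and its 95% interval ran from -0.32 to 0.57. The sign turned when sham replicate 3 was omitted (-0.018) and when DAC replicate 4 was omitted (-0.022). ATP1B2 supplied between 4.91% and 9.01% of the summed FPKM of ATP1B1 and ATP1B2. That share was 6.52% ± 1.62 in the sham group and 6.77% ± 1.96 in the DAC group (SD, n = 3 each; two-sided exact permutation P = 0.9). The difference of 0.24 percentage points turned to -0.56 when sham replicate 3 was left out and to -0.88 for DAC replicate 4, and it grew to 1.05 when sham replicate 2 was left out.

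An unnamed row (ENSSSCG00000011676, chromosome 13 from 82680497 to 82759966) shares 46556 bases with the RefSeq position of ATP1B3, whose product is a more widely expressed beta isoform. The same row shares 7521 bases with TFDP2 on the opposite strand, and its values are given for the row and not for ATP1B3. It was at 1.44, 1.50 and 1.95 FPKM in the sham minipigs and at 1.65, 1.07 and 1.52 FPKM in the DAC minipigs. The groups overlapped, and the log2 fold change of ENSSSCG00000011676 was -0.13 with a standard error of 0.14 (limma, adjusted P = 0.812).

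SLC4A3 (ENSSSCG00000022846, chromosome 15 from 121630316 to 121643539, plus strand) encodes the anion exchanger AE3, an acid loader that moves bicarbonate out of the cardiomyocyte in exchange for chloride. The sham minipigs had 88.5, 64.8 and 74.3 FPKM and the DAC minipigs 65.4, 89.9 and 59.5 FPKM. The pair of highest samples held 1 minipig of each group, sham replicate 1 and DAC replicate 5. The means were 75.9 ± 11.9 FPKM in the sham group and 71.6 ± 16.1 FPKM in the DAC group (SD, n = 3 each). For SLC4A3, the log2 fold change was -0.093 with a standard error of 0.19 (limma, adjusted P = 0.903), and its 95% interval ran from -0.53 to 0.34. It became 0.022 without sham replicate 1 and 0.027 without DAC replicate 6.

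SLC4A4 (ENSSSCG00000008943, chromosome 8 from 67706880 to 68290496, plus strand) encodes the cotransporter NBCe1, an acid extruder that carries sodium and bicarbonate into the cell. Its level was 1.86, 1.62 and 2.08 FPKM in the sham group and 1.80, 1.76 and 2.03 FPKM in the DAC group. All DAC values lay inside the sham range. The means were 1.86 ± 0.228 FPKM and 1.87 ± 0.145 FPKM for sham and DAC (SD, n = 3 each). The log2 fold change of SLC4A4 was 0.0067 with a standard error of 0.11 (limma, adjusted P = 0.990), and the 95% interval ran from -0.26 to 0.28. On the log2(FPKM + 1) scale a change at such a low level is understated. The row spans 29864 bases of the RefSeq gene DCK, which encodes deoxycytidine kinase. It also holds the RefSeq genes LOC106507787, of 25883 bases, and LOC110261977, of 603 bases. Reads from these genes cannot be told apart from those of SLC4A4.

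Within each minipig, SLC4A4, the acid extruder among the members, was set against SLC4A3, the acid loader among them. A scaling factor applied to a whole sample cancels in this ratio. Quantile normalization, which is not such a factor, can change the ratio and was not run for it. The overlap of the SLC4A4 row with DCK and other RefSeq genes carries over to the ratio. The log2 ratio of SLC4A4 to SLC4A3 was between -5.67 and -4.87, and both of these extremes were DAC minipigs, replicates 5 and 6. The mean log2 ratio was -5.35 ± 0.207 in the sham group and -5.24 ± 0.404 in the DAC group (SD, n = 3 each; two-sided exact permutation P = 0.8). The difference of 0.11 in the mean log2 ratio fell below 0 when DAC replicate 6 was left out (-0.078) or sham replicate 1 (-0.0036), and it was 0.32 when DAC replicate 5 was left out.

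**Figure D2:**
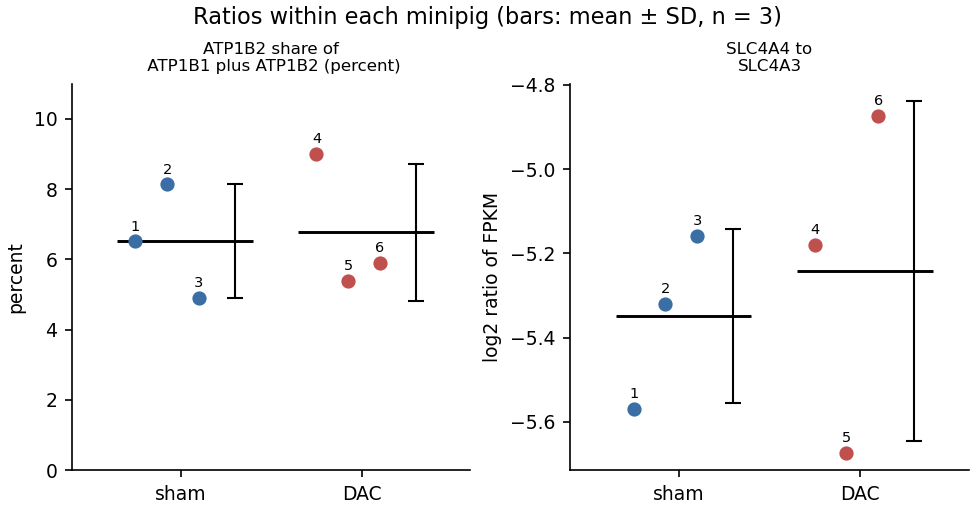
Values within each minipig of the ATP1B2 share of the summed FPKM of ATP1B1 and ATP1B2 (left, percent, axis from 0) and of the log2 ratio of SLC4A4 to SLC4A3 FPKM (right, axis not from 0), with sham in blue, DAC in red, replicate numbers above the points, lines at the means and bars for the SD (n = 3). The groups overlap in both panels.

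SLC12A2 (ENSSSCG00000014255, chromosome 2 from 131016430 to 131109305, plus strand) encodes NKCC1, which brings sodium, potassium and chloride into the cell together and serves in the regulation of cell volume. It was at 4.26, 6.42 and 4.21 FPKM in the sham minipigs and at 6.34, 4.69 and 5.14 FPKM in the DAC minipigs. Sham replicate 2 was the highest of the 6 samples and DAC replicate 4 came next, as the same minipigs held the top places for ATP1B2. The means were 4.96 ± 1.26 FPKM for sham and 5.39 ± 0.853 FPKM for DAC (SD, n = 3 each). SLC12A2 had a log2 fold change of 0.11 with a standard error of 0.18 (limma, adjusted P = 0.875), and its 95% interval ran from -0.30 to 0.53. Without sham replicate 2 it was 0.28, with an unadjusted P of 0.108 from limma, the smallest of any member in the alternatives. The row shares 62377 bases with a RefSeq long non-coding gene, LOC102162098.

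ATP1B2 and SLC12A2 had the largest log2 fold changes in absolute size, and the named genes with the most similar pattern over the 6 samples were looked up for both. Likeness was the root-mean-square difference of the log2(FPKM + 1) values, each gene centred on its own mean. For ATP1B2, whose own values had a root-mean-square spread of 0.23, the nearest genes were HOOK2 at 0.051, ZC3H4 at 0.066 and GNL1 at 0.066. HOOK2 was only at 0.79 to 1.78 FPKM, a level at which log2(FPKM + 1) understates changes. For SLC12A2, with a spread of 0.21, they were LAMP2 at 0.034, FAM71E1 at 0.046 (also low, at 1.80 to 2.87 FPKM) and HPF1 at 0.056. These genes were the closest of the named genes among 11029 tested, over 6 samples, and the values are a description.

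None of the related genes tested passed the threshold. They were 45 further genes for the regulators of the pump and the transport of acid and chloride, and 0 were upregulated and 0 downregulated DEGs at an unadjusted P under 0.05 in limma, against 3.25% and 5.27% of all genes tested. Their median log2 fold change was -0.060, with 20 genes above 0 and 25 below. The smallest unadjusted P of the 45 was that of CHP1 (ENSSSCG00000004751), whose product binds sodium-hydrogen exchangers, and the gene was named after its values were seen. CHP1 was at 13.3, 11.6 and 10.6 FPKM in the sham group and at 13.7, 16.0 and 14.0 FPKM in the DAC group. All DAC samples lay above all sham samples, as for 6.01% of the genes tested. The log2 fold change of CHP1 was 0.28 with a standard error of 0.12 (limma, unadjusted P = 0.0537, adjusted P = 0.592). In 4 of 14 alternatives its unadjusted P was under 0.05, and in the other 10 it was not. The log2 fold change of CHP1 was 0.32 with quantile normalization and 0.36 without sham replicate 1, which were among the 4. It was lowest without sham replicate 3, at 0.21 (limma, unadjusted P = 0.172), the largest P of the 14.

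**Figure D3:**
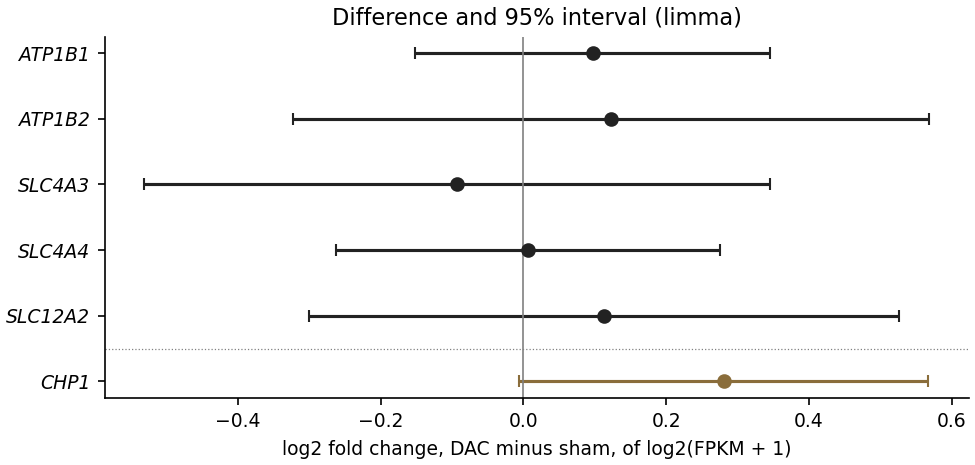
Log2 fold change of DAC minus sham on log2(FPKM + 1) (horizontal axis) with its 95% interval from limma, for the 5 members (black) and the related gene CHP1 (brown). The intervals of all 5 members and of CHP1 include 0, and that of CHP1, whose groups did not overlap, starts at -0.0059.

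The lists had medians on both sides of 0. Of the 8 sodium-hydrogen exchangers and partners tested, 4 had a log2 fold change above 0, and their median was 0.020. The 12 kinases, phosphatases and regulators that act on phospholemman had a median of -0.048 and no DEG. The 6 other bicarbonate and anion exchangers had a median of -0.073 and no DEG. The 4 other cation-chloride cotransporters, most of which carry potassium and chloride out of cells, had a median of -0.024. The 6 WNK, SPAK and OSR1 kinases and their partners, which switch on SLC12A2, had a median of -0.090. The 3 sodium-calcium exchangers, which depend on the sodium gradient, had a median of 0.029. The 3 genes of lactate-proton transport and the proton channel had a median of -0.094, and the 2 carbonic anhydrases tested had one of -0.065. The groups did not overlap in 6 of the 45 genes, 4 of them higher and 2 lower in the DAC group, beside 6.01% higher and 8.91% lower of all genes tested. None of the 6 other FXYD genes had a row under its own symbol.

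**Figure D4:**
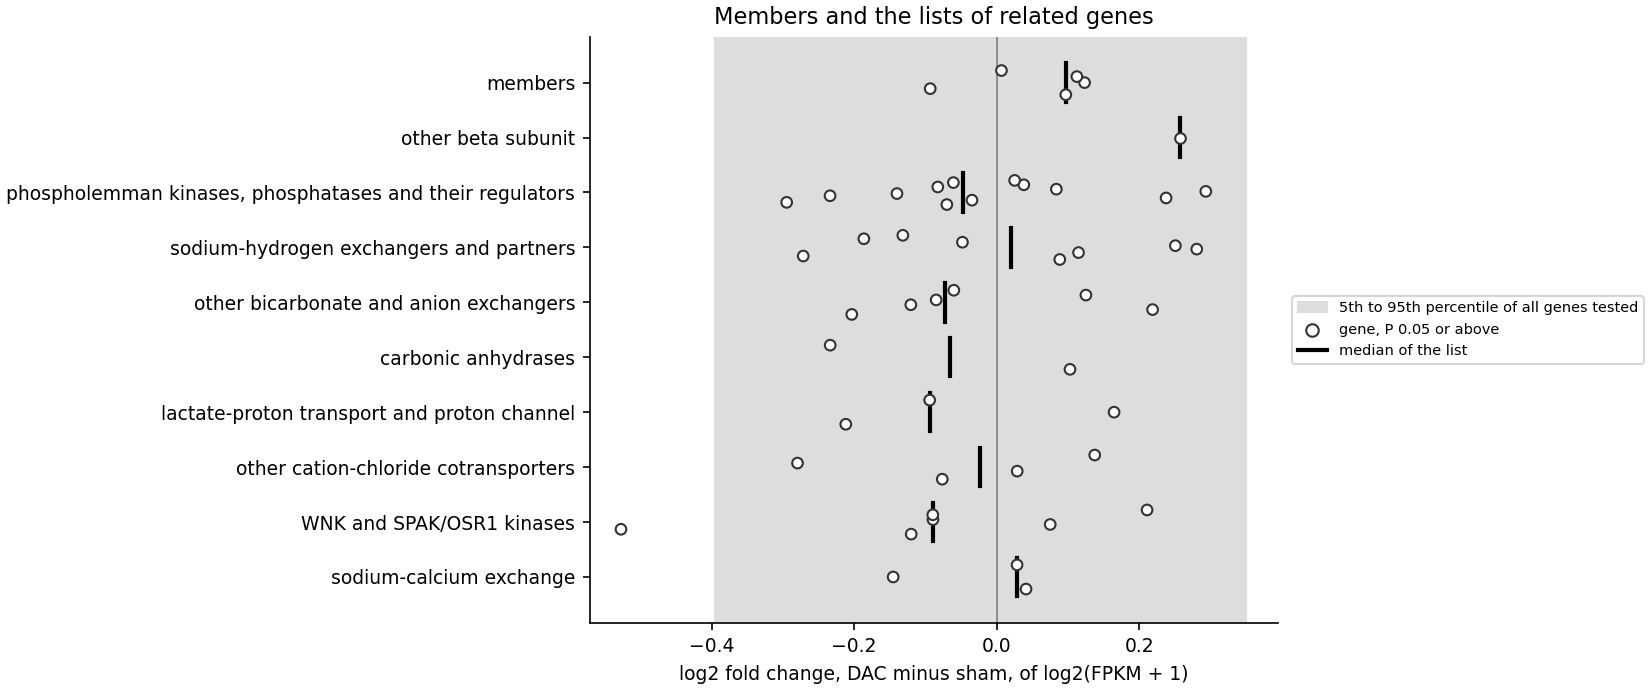
Log2 fold change of DAC minus sham on log2(FPKM + 1) (horizontal axis) for each tested gene of the members and of 9 lists of related genes (rows). Lines mark list medians and the grey band runs from the 5th to the 95th percentile of all genes tested (-0.40 to 0.35). No gene shown had an unadjusted P under 0.05.

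The samples held heart muscle RNA, as the summed FPKM of the cardiomyocyte markers below shows. Of 14 such markers, 10 had a row, and 1 of these was a downregulated DEG. The others, MYH6, TTN, MB and PLN, had no row. Counts of DEGs in the marker lists stand beside 3.25% upregulated and 5.27% downregulated among all genes tested. The summed FPKM of the cardiomyocyte markers was between 14944 and 15659 in the sham samples and between 14134 and 17086 in the DAC samples. Fibroblast markers were higher in the DAC group, with 4 of 8 upregulated DEGs and a summed FPKM from 532 to 617 in sham and from 743 to 847 in DAC samples. Endothelial markers had 1 upregulated and 2 downregulated DEGs among 8, and their summed FPKM ran from 163 to 229 in sham and from 139 to 207 in DAC samples. Smooth muscle and Schwann cell markers had 1 upregulated DEG each, among 8 and 5 tested, leukocyte markers had 1 downregulated DEG among 5, and the single tested marker each of red blood cells and adipocytes was no DEG. Mitochondrially encoded genes took from 24.0% to 25.3% of the summed FPKM in sham samples and from 27.1% to 32.8% in DAC samples, with the highest share in DAC replicate 5. The part of these shifts in the values of the members and CHP1 was not tested, except in 1 alternative. It left out the mitochondrially encoded genes and rescaled each sample to an equal total of the remaining FPKM. CHP1 then had a log2 fold change of 0.32, ATP1B1 0.14, ATP1B2 0.16, SLC4A3 -0.049, SLC4A4 0.035 and SLC12A2 0.15. The median of all genes tested also rose, from -0.016 to 0.020. In bulk tissue, fewer cells of a type and less RNA per cell cannot be told apart.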

How the data were processed

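The deposited table gives FPKM for each gene in each of the 6 minipigs, computed by the authors, with no pooling. The submitters' processing notes name HISAT2 and the build susScr11. The program that made the values, and its treatment of shared reads and strand, are not given in the sources used here. Every listed gene reaches 0.5 FPKM in its highest sample. Of 10132 symbols placed in both, 99.95% overlapped their RefSeq position on Sscrofa11.1, the same build. The depth is unknown and no steps of whole reads were seen, so precision rests on the spread between minipigs.

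A gene entered the test when 3 or more samples had 1 FPKM or more, and the test ran on log2(FPKM + 1) with limma 3.58.1 (trended moderated test, R 4.3.3) and Benjamini-Hochberg adjustment over all 11029. Ratios used exact permutation tests (scipy 1.17.1). The test was checked on simulated data with changes larger than those of the members, so the check does not bear on changes as small as theirs. The planned ratio of phospholemman to the beta subunits could not be computed, and beta subunit shares used ATP1B1 and ATP1B2.

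Named genes were the members, any related gene with P under 0.05, and the 3 genes closest in pattern to each member with P under 0.05 or, as here, to the 2 members with the largest fold change. Outside this rule, CHP1, ATP1B4, PRKACB and the genes called only in an alternative were named after their values were seen. Some genes of the related lists are not reported here, and the counts and medians of the lists leave them out. The members and lists were chosen with earlier results of these data known. Alternatives were other filters, pseudocounts, scalings and variance estimates, sample weights, and each sample left out in turn.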

Additional observations from a re-analysis of the deposited data

How the results depend on the processing

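Each of the 5 members was refitted under up to 14 alternatives, 69 fits in all, and none gave an unadjusted P under 0.05 in limma. The number of members that were DEGs was therefore 0 throughout. The sign of the log2 fold change turned in 7 of these fits, 2 of ATP1B2, 2 of SLC4A3 and 3 of SLC4A4. With 1 minipig left out in turn, the log2 fold change was from 0.056 to 0.17 for ATP1B1, from -0.022 to 0.27 for ATP1B2, from -0.27 to 0.027 for SLC4A3, from -0.053 to 0.063 for SLC4A4 and from 0.0085 to 0.28 for SLC12A2. For SLC4A4 it was -0.0085 after quantile normalization. The number of related genes that were upregulated DEGs, 0 in all samples, was 1 with a minimum of 5 FPKM, with quantile normalization and when the mitochondrially encoded genes were omitted, and the gene was CHP1 each time. With 1 minipig left out it was between 0 and 1, being CHP1 without sham replicate 1 and SLC4A7 without DAC replicate 6, and the number of downregulated DEGs was between 0 and 4. The 4 without sham replicate 2 were SLC9A8, SLC16A1, SLC12A7 and WNK2, and WNK2 was also called without DAC replicate 4. Counting the unnamed row at the ATP1B3 position among the beta subunits, an alternative added after seeing the data, gave a difference in the ATP1B2 share of 0.26 percentage points, against 0.24. With 1 minipig left out that difference was from -0.88 to 1.05 percentage points, and the difference in the log2 ratio of SLC4A4 to SLC4A3 was from -0.078 to 0.32, so the sign of neither held. No paired analysis was run, because the study assigned different minipigs at random to sham or DAC surgery. At the standard errors of the main fit, a log2 difference below 0.25 for ATP1B1 and 0.45 for ATP1B2 could not have been called.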

Other observations

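A gene without a symbol lay in the cluster of FXYD genes on chromosome 6 (ENSSSCG00000021374, from 44667801 to 44672239, plus strand), and it was chosen for its position. Of the FXYD genes, only FXYD1 and FXYD7 were looked up by position. The FXYD family consists of small membrane proteins that tune the sodium pump. Its position overlapped that of RefSeq FXYD7 by 3649 bases, began before it, and was matched to no gene name by its identifier. The tables used here do not tell whether the row belongs to FXYD7, to FXYD1 (phospholemman) or to another FXYD gene, so its values are given for the row alone. The FPKM of ENSSSCG00000021374 was 118, 132 and 129 in the sham minipigs and 111, 100 and 114 in the DAC minipigs, more than that of any of the 5 members in each sample. All DAC samples were below all sham samples, as for 8.91% of the genes tested. The log2 fold change of ENSSSCG00000021374 was -0.22 with a standard error of 0.10 (limma, unadjusted P = 0.0723, adjusted P = 0.596). It was -0.14 after quantile normalization (limma, unadjusted P = 0.212) and -0.18 with the mitochondrially encoded genes left out (limma, unadjusted P = 0.125). The unadjusted P was under 0.05 in 1 alternative, with the variance of each gene on its own (0.0428).

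ATP1B4, which belongs to the beta subunit family by sequence but is a protein of the inner nuclear membrane of muscle in placental mammals, varied more between minipigs of the same group than any member. The FPKM of ATP1B4 was 1.45, 29.4 and 10.7 in the sham minipigs and 10.8, 4.82 and 20.6 in the DAC minipigs. This is a 20.3-fold range within the sham group, and the groups overlapped.

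PRKACB, a catalytic subunit of the kinase that phosphorylates phospholemman, was at 35.1, 39.3 and 36.3 FPKM in the sham minipigs and at 44.4, 13.4 and 44.2 FPKM in the DAC minipigs. DAC replicate 5, the sample with the highest mitochondrial share, stood apart from the rest. The unadjusted P of PRKACB was 0.509 in limma.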
